A study of Mus musculus with 4 samples.

Results

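The comparison described here sets the epigonadal white fat of LTKO mice against the fat of their floxed control mice, with 1 array on each side. These are 2 of the 4 arrays of the series, chosen by their labelled genotype. Every gene measured by a probe with exactly 1 gene symbol was included, which gave 22180 genes, and genes of epididymis, sperm and liver were kept apart from genes of fat.

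LTKO stands for Irs1/2:FoxO1-flox mice that carry Albumin-Cre, so both insulin receptor substrate genes and FoxO1 are floxed in them. The control, written below as the own control, was the Irs1/2:FoxO1-flox line without Cre, which carries the same floxed alleles. The other 2 arrays were an Irs1/2-flox control without Cre and LDKO, which is Irs1/2-flox with Albumin-Cre, and they are printed beside the comparison to show where each of its arrays lay. All mice were male and fasted. The mice with Cre were aged 4 months; no age is labelled for either control line. Whether an array stands for a single mouse or for pooled mice is not labelled. The albumin promoter drives Cre in hepatocytes, so the fat itself is expected to keep the floxed genes, and a deletion in liver cannot be checked from fat.

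Irs1 and Irs2 carry the signal of the insulin receptor into the cell, and insulin signalling keeps FoxO1, a transcription factor active in fasting, out of the nucleus. Epigonadal fat of a male mouse is the pad attached to the epididymis and testis. The epididymis is a coiled duct whose first part, the caput, secretes antioxidant enzymes, lipocalins and defensins onto sperm; the efferent ducts that lead into it carry multiciliated cells. Hepatocytes secrete albumin and most other plasma proteins.

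Values are log2 signals made by RMA, a method that corrects background, equalises the distributions of the arrays and summarises the probes of a probe set. A difference of 1 is 2-fold. The median gene stood at 5.15 over the arrays. As a gauge of the level of unexpressed genes, 1409 chemoreceptor genes had a median of 2.70 and a 95th percentile of 4.61. The medians over all probes were 4.68 to 4.73 in the 4 arrays. Across genes, which are not independent replicates, Pearson's r was 0.989 between LTKO and its own control and 0.991 between both controls. With 1 array a group there is no spread between replicates, no standard error and no test, so each difference below is one between these arrays. In RNA of a whole tissue, fewer cells of a type and less RNA per cell cannot be told apart.

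The labelled tissue was borne out by the adipocyte genes. Fabp4, the fatty acid binding protein of adipocytes, stood at 12.98 in the own control and 12.99 in LTKO. Adipoq, the hormone adiponectin, stood at 10.48 and 10.35. The median of 31 measured adipocyte genes was 10.08 in the own control and 10.04 in LTKO, far above the median gene.

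Most genes were alike in both arrays. The difference LTKO minus own control lay within 0.5 for 94.1% of the 22180 genes, with a median of -0.02 and an SD across genes of 0.29, beside 0.26 for the difference between both controls. Among named genes and against this control, the larger differences ran mostly upward. Among 11533 genes whose higher array of the comparison reached the median gene, 200 (1.73%) were 2-fold or more above the own control in LTKO and 5 (0.0434%) were 2-fold or more below it. Over all measured genes the counts were 250 higher (1.13%) and 8 lower (0.0361%), although only 45.6% of all genes had a positive difference. The split was less uneven with the Irs1/2-flox control as reference, where the filtered counts were 97 higher and 47 lower, and among 5220 filtered probes without a symbol, where 86 were higher and 70 lower than in the own control. Between the controls, which both lack Cre, the same size rule and filter put 30 genes (0.262%) above and 58 (0.507%) below in the own control, relative to the Irs1/2-flox control.

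**Figure D1:**
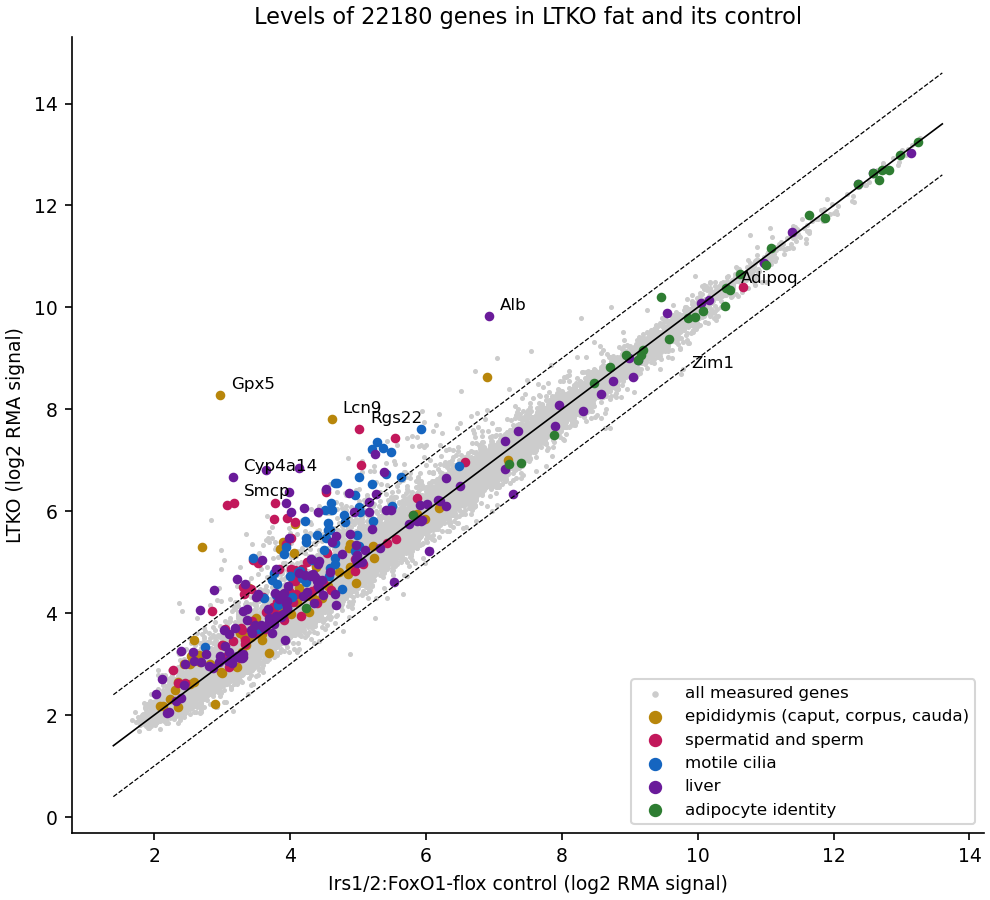
Each point is 1 of 22180 genes, with its log2 RMA signal in the Irs1/2:FoxO1-flox control on the x axis and in LTKO on the y axis, and colours mark gene lists of epididymis, sperm, cilia, liver and fat. Adipoq and the other fat genes lie along the diagonal, whereas Gpx5 (2.97 in the control and 8.28 in LTKO), Lcn9, Smcp, Alb and Cyp4a14 lie far above it.

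Most genes with the largest differences are best known from tissues other than fat. The 20 leading named genes comprised genes of the epididymal caput (Gpx5, Lcn9, Defb48), of spermatids and sperm (Adam5, Smcp, Rgs22, Tnp1, Tnp2), of hepatocytes (Cyp4a14, Serpina1c, Alb, Ahsg, Mup3, Apob), 1 gene of motile cilia (Cfap44), and 5 that are in none of the gene lists used (Cdr1, Lrrc34, Efcab1, Slc38a3 and Lrp2). In what follows the 4 values of a gene are always given in the order Irs1/2-flox control, LDKO, own control and LTKO. The promoters of Gpx5, the gene with the largest difference, and of Alb, whose promoter drives Cre in this model, are printed as 1 gene each of the epididymis and the liver group. Both come from RefSeq on GRCm38.p6 and run 5′ to 3′ along the gene's own strand over the 250 bases before its start, at chr13:21292687-21292936 on the minus strand for Gpx5 and chr5:90460620-90460869 on the plus strand for Alb.
Gpx5: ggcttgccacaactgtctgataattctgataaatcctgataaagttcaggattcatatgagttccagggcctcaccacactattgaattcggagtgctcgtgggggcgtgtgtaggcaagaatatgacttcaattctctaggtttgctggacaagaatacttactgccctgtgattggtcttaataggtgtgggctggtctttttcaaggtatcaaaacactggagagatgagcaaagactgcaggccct
Alb: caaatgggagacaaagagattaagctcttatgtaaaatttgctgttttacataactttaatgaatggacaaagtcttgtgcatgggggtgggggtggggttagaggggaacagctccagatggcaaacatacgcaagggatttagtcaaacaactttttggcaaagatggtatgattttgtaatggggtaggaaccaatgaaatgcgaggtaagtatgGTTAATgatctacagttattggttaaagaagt
Capitals mark GTTAAT, the opening letters of the classical binding sequence of the hepatocyte factor HNF1, searched on both strands. The match in Alb lies from -32 to -27 relative to the gene's start, and the window of Gpx5 holds none. Of 27025 genes with a promoter in the RefSeq table, 2023 (7.49%) hold these letters in the same window, so a match is a description of sequence only.

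The gene with the largest difference belonged to the epididymis. Gpx5, the secreted glutathione peroxidase of the caput, read 3.32, 3.20, 2.97 and 8.28, a difference of 5.31 from an own control at the level of unexpressed genes. Lcn9, an epididymal lipocalin, read 4.62, 4.77, 4.62 and 7.80, a difference of 3.18. In 3 arrays both were below the median gene, Gpx5 within the range of the chemoreceptor genes and Lcn9 just above their 95th percentile, and in LTKO both were well above it. Defb48, a beta-defensin, read 2.94, 2.51, 2.71 and 5.29. Lcn8, another epididymal lipocalin, read 3.90, 4.18, 4.07 and 5.75. Adam7, a membrane protein of the caput that is passed to sperm, read 3.79, 3.70, 3.85 and 5.25. In each of these, LTKO stood alone above 3 arrays that lay close together.

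Of 38 measured genes of the initial segment and caput, of 40 listed, 8 lay 2-fold or more above the own control (21.1%, against 1.13% of all genes) and none lay 2-fold below; 28 of the 38 had a positive difference, and the median was 0.24. All 8, which also include Defb20 (1.5), Adam28 (1.11) and Ovch2 (1.11), were at least 2-fold above the highest of the other 3 arrays, a size that 0.383% of all genes reached. Ovch2 read 3.42, 3.37, 3.39 and 4.50, below the chemoreceptor genes' 95th percentile of 4.61 in every array. Other caput genes did not differ in this way. Cst11, a cystatin, was 0.88 higher and Lcn10 0.53 higher, while the differences of Lcn5, Lcn6, Rnase9 and Sult1e1 were 0.02, -0.09, -0.18 and -0.20. The gene lists here and below were chosen with earlier results of these data known. Their shares are descriptions and no independent support.

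Genes of the later epididymis and of the accessory glands were mostly level, and most were dim in every array. The median level of the corpus and cauda genes was 3.26, 3.42, 3.29 and 3.23, within the range of the chemoreceptor genes. No measured accessory gland gene reached the median gene in any array. Of 25 measured corpus and cauda genes, 1 was at least 2-fold higher, with a median of 0.07. That gene was Mmp7, a matrix metalloproteinase of epithelia, at 8.49, 8.15, 6.90 and 8.62, a difference of 1.73 that came with a low own control. Among 17 measured genes of the seminal vesicle, prostate and other accessory glands none reached 2-fold and the median was -0.10. Of 13 genes of the epididymal ion-pumping and principal cells 3 (23.1%, against 1.13% of all genes) reached it. These were the sodium-proton exchanger Slc9a3 (5.13, 4.99, 4.82 and 6.03), the kidney-type cadherin Cdh16 and the transcription factor Pax8. The own control was the lowest array for 10 of the 13 (76.9%, against 23.3% of all genes). None of the 13 was 2-fold above the Irs1/2-flox control in LTKO. The list's median was 0.33 against the own control and 0.10 against the Irs1/2-flox control.

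Genes of late sperm formation were a further group. Smcp, a protein of the mitochondrial capsule of sperm, read 3.38, 3.27, 3.17 and 6.17. The transition proteins Tnp2 and Tnp1, which replace histones in condensing spermatids, read 4.04, 3.95, 3.78 and 6.17, and 3.68, 3.77, 3.77 and 5.84. Adam5, a sperm membrane protein of the ADAM family, read 3.40, 3.22, 3.07 and 6.13. LTKO was the only array of the 4 in which these genes passed the median gene. Gapdhs, the sperm form of the glycolytic enzyme, read 4.62, 4.61, 4.52 and 6.38, and Ldhc, the sperm form of lactate dehydrogenase, 4.05, 4.03, 3.94 and 5.36.

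Of 73 measured spermatid and sperm genes 19 (26%) lay 2-fold or more above the own control and none below it; 62 had a positive difference and the median was 0.38. For 13 of the 19, LTKO was at least 2-fold above the highest other array. Pgk2, Gsg1, Oaz3 and Cabs1, which are among the 19, stayed below 4.61, the gauge's 95th percentile, in every array. Not all sperm genes reached 2-fold: the protamine Prm1 was 0.78 higher and Akap4, the chief protein of the fibrous sheath, 0.86 higher. The probes of Odf1, an outer dense fibre protein, disagreed: the brighter one, used here, read 10.34, 10.31, 10.66 and 10.40, and the other 4.6, 4.55, 4.54 and 5.79, 2-fold or more above the own control in LTKO. Rgs22, listed with sperm, had another profile, at 6.27, 5.90, 5.02 and 7.61, above the gauge in every array and lowest in the own control. Spa17 (6.37, 6.10, 5.54 and 7.44) and Spata18 (5.78, 5.57, 5.05 and 6.90) resembled it.

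Genes of earlier germ cells and of testis support cells had smaller medians. Of 29 measured spermatocyte genes 2 were at least 2-fold higher, Mael (3.43, 3.81, 3.69 and 5.40), which guards against transposons, and the chaperone Clgn (4.49, 4.20, 4.28 and 5.55), with a list median of 0.10. None of 18 spermatogonial genes reached 2-fold, and their median was -0.03. Among 20 genes of Sertoli and Leydig cells 1 reached it, the transcription factor Sox9 at 6.46, 6.57, 6.0 and 7.29, and the median was -0.07.

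**Figure D2:**
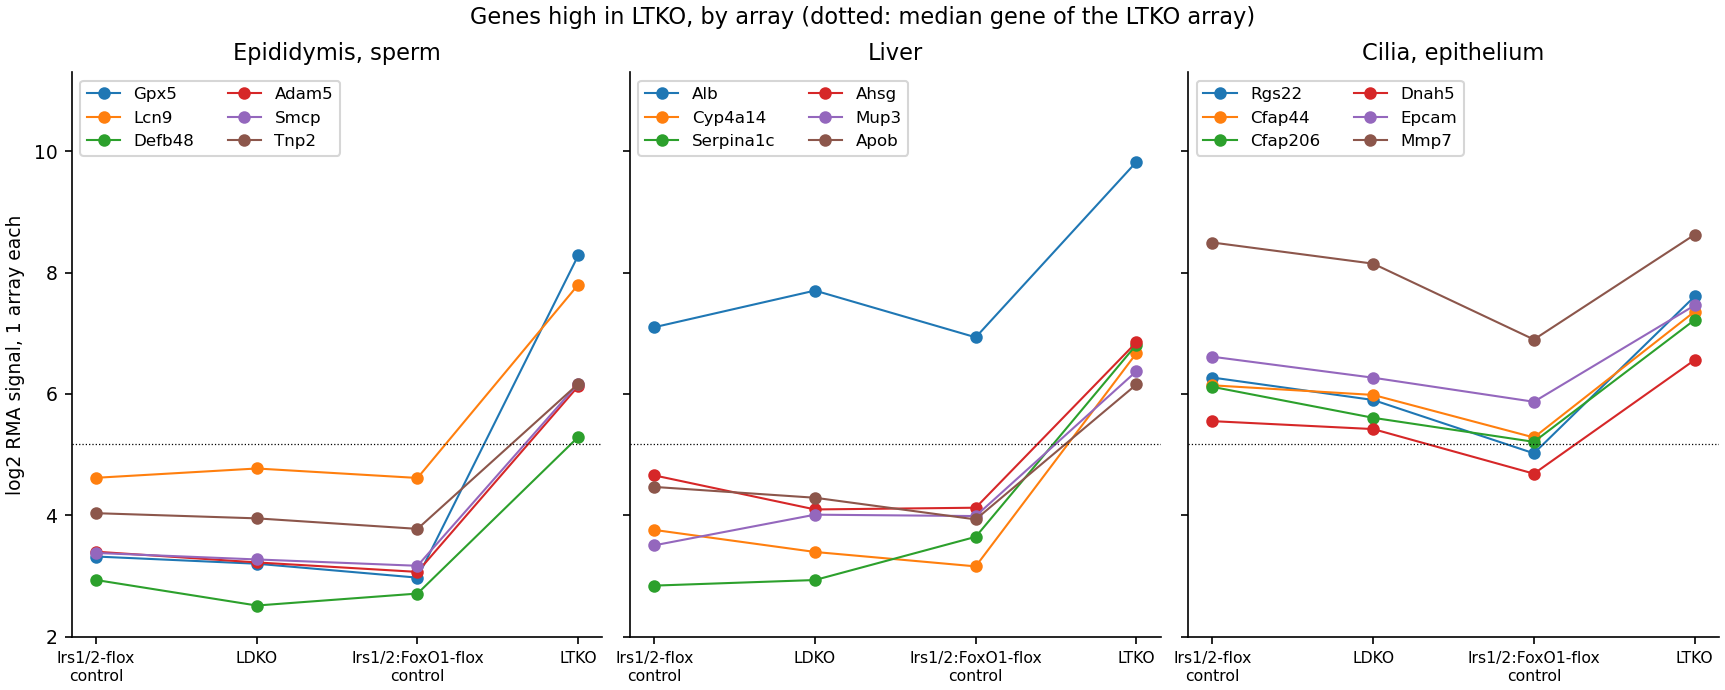
Log2 RMA signal of 18 genes in each of the 4 arrays, 1 array each, in 3 panels for epididymis and sperm, liver, and cilia and epithelium; lines only join the values of 1 gene, and the dotted line is the median gene of the LTKO array (5.17). Genes of the first panel, such as Gpx5, are low in 3 arrays and high in LTKO, whereas those of the third, such as Dnah5 (5.55, 5.42, 4.69 and 6.56), are above the low level in every array and lowest in the own control.

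Hepatocyte genes were also among the leading genes. Alb, serum albumin, read 7.10, 7.70, 6.93 and 9.82, a difference of 2.89 or 7.41-fold, and was above the median gene in every array. Ahsg, the plasma protein fetuin-A, read 4.66, 4.10, 4.13 and 6.85. Mup3, a major urinary protein made by the liver, read 3.51, 4.01, 3.99 and 6.37. Apob, the scaffold of very low density lipoproteins, read 4.47, 4.29, 3.93 and 6.16. Cyp4a14, a fatty acid hydroxylase that PPARalpha induces in liver, read 3.76, 3.40, 3.16 and 6.67, a difference of 3.51 from an own control at the level of unexpressed genes. In all of them LTKO was the highest array, by more than 2-fold over each of the others.

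Of 50 measured plasma protein genes 10 (20%) lay 2-fold or more above the own control and none below it; 44 had a positive difference and the median was 0.45. The other 7, beside Alb, Ahsg and Apob, were Serpina1c, Mup3, Pzp (1.97), Apoa1 (1.5), Fgb (1.46), Mug1 (1.45) and Apoh (1.09). Serpina1c, an alpha-1-antitrypsin gene, read 2.84, 2.93, 3.65 and 6.81, while its near-identical neighbours Serpina1a, Serpina1b, Serpina1d and Serpina1e differed by -0.44, -0.05, -0.16 and -0.28. Since probes of such copies can share sequence, which copy the signal comes from is uncertain, and the same holds for Mup3 and Mug1. Ttr, transthyretin, was 0.75 higher.

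Of 74 measured hepatocyte enzymes and transporters 10 were at least 2-fold higher (13.5%) and none lower, with a median of 0.19. Slco1b2 and Cyp2a12, which are among the 10, stayed below 4.61, the gauge's 95th percentile, in every array. Mat1a, the liver form of methionine adenosyltransferase, read 4.82, 4.62, 4.52 and 6.44, and Cps1, which opens the urea cycle, 4.93, 5.11, 4.42 and 5.98. Ugt2b1, a glucuronosyltransferase, read 4.23, 4.45, 4.21 and 6.06. Fat also expresses part of this list: 20 of the 74 reached the median gene in the own control, a smaller share than the 49.5% of all genes. Cyp2e1, an ethanol-metabolising cytochrome, was at 13.04 to 13.14 in all arrays. Slc27a2 (6.26, 5.55, 5.24 and 7.12), a fatty acid transporter that is also on the brown fat list, and Hnf4a (5.86, 5.74, 5.17 and 6.18), a transcription factor of liver and gut, were lowest in the own control.

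Genes that fasting raises in liver differed in either direction. Of 25 measured genes of this kind 3 were at least 2-fold higher, Cyp4a14, Fabp1 (3.26, 3.06, 2.88 and 4.45) and Igfbp1 (5.06, 4.92, 3.99 and 5.47), and the median was 0.03. Fabp1 stayed below 4.61, the gauge's 95th percentile, in every array. Pdk4, which blocks pyruvate oxidation in fasting, was 0.10 higher, at 11.26, 10.62, 11.39 and 11.48. Of 17 acute phase genes 1 reached 2-fold, the iron hormone Hamp at 2.87, 2.44, 2.42 and 4.04, also below 4.61 in every array. A list of pancreas, kidney and intestine genes held 2 of 25, Apob and the brush border protein Vil1, with a median of -0.00.

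Motile cilia gave the largest list median. Of 59 measured cilia genes 28 (47.5%) lay 2-fold or more above the own control and none below it; 58 had a positive difference, and the median was 0.94. Cfap206, a protein of the ciliary axoneme, read 6.12, 5.61, 5.21 and 7.22. Cfap44 read 6.14, 5.98, 5.28 and 7.36, and Dnah5, an outer arm dynein heavy chain, 5.55, 5.42, 4.69 and 6.56. Stoml3, a stomatin-like membrane protein, read 7.06, 5.93, 5.48 and 7.15. Across the list both arrays of the comparison took part, with LTKO high and the own control low. For Stoml3, LTKO lay only 0.09 above the Irs1/2-flox control. Of the 59 genes, 7 were at least 2-fold above that control in LTKO. Foxj1, the transcription factor that switches on the motile cilia programme, was 0.60 higher, at 5.45, 5.44, 5.50 and 6.10, and the 1 member with a negative difference was Dnah2, with -0.30 at its brighter probe and 0.70 at its other, dimmer probe.

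The own control was the lowest of the 4 arrays for 46 of the 59 cilia genes (78.0%), against 23.3% of all measured genes. The median cilia gene stood at 4.84, 4.84, 4.58 and 5.47. Against the Irs1/2-flox control the median LTKO difference was 0.56, and 4 of the 59 genes were at least 2-fold above the highest other array. For spermatid and sperm genes the medians were 0.38 against the own control and 0.34 against the other one, and for plasma proteins 0.45 and 0.46.

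Epithelial genes resembled the cilia genes. Of 29 measured genes of simple epithelium 5 (17.2%) lay 2-fold or more above the own control, 27 had a positive difference, and the median was 0.51. Epcam, the epithelial adhesion molecule, read 6.61, 6.27, 5.87 and 7.46. Prom1, a protein of apical membrane protrusions, read 5.98, 5.93, 5.72 and 7.44. Cdh1, E-cadherin, read 6.30, 6.12, 5.67 and 6.94, a difference of 1.26. The own control was lowest for 21 of the 29 (72.4%, against 23.3% of all genes), and the median difference from the Irs1/2-flox control was 0.17. The keratins Krt8 (7.05, 6.54, 6.29 and 7.20) and Krt18 (6.73, 6.11, 5.91 and 6.75), shared with mesothelium, were 0.91 and 0.84 above the own control and 0.15 and 0.02 above the other one.

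**Figure D3:**
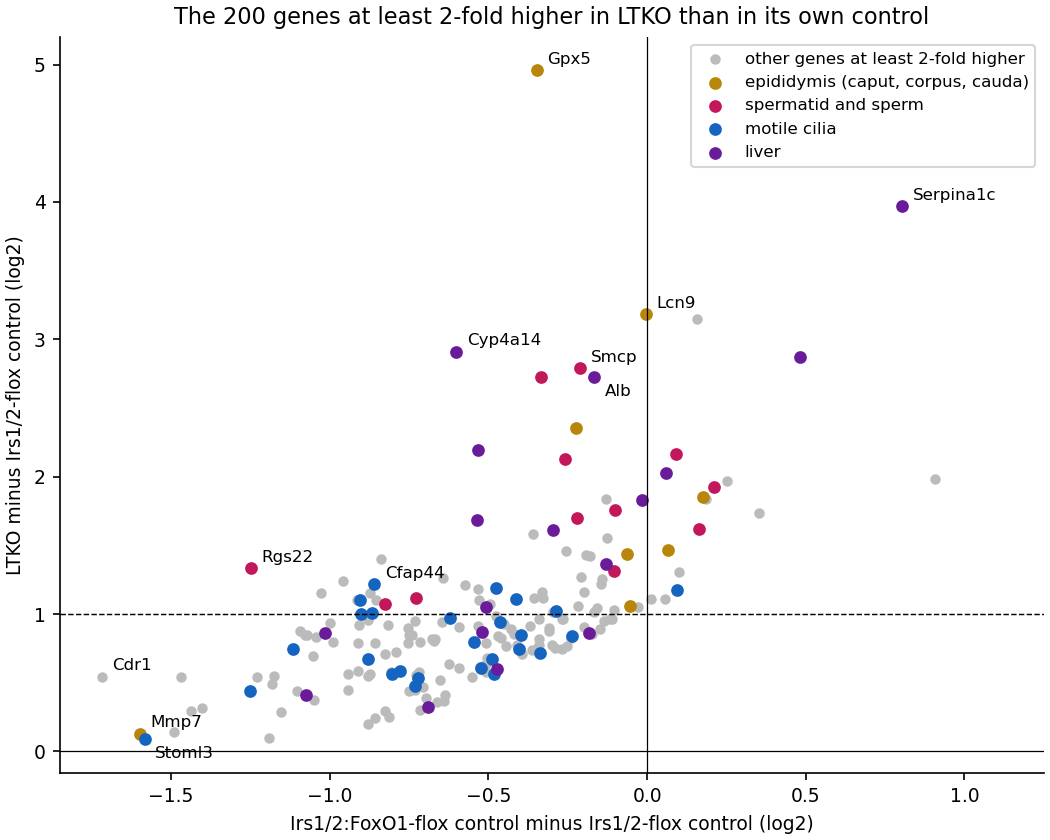
The 200 genes with an LTKO value 2-fold or more above the own control, with the difference between the controls on the x axis and LTKO minus the Irs1/2-flox control on the y axis, both log2; the dashed line is 2-fold. Gpx5 (-0.35 on the x axis), Lcn9, Smcp and Alb lie nearer to 0 and far up. Stoml3 of the cilia list (-1.58), and Mmp7 and Rgs22 of the epididymis and sperm lists, lie further to the left. To the left of 0 the own control was the lower control. Cyp4a14 of the liver group (-0.60) lies between them.

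The choice of control therefore sets the size of many of the 200 differences. Their median was 1.46 against the own control, which chose them, and 0.88 against the Irs1/2-flox control, and 45 of the 200 lay within 1.5-fold of that array. The own control was the lowest array for 169 and LTKO the highest for 197, counts that the choice of genes raises. For 67 genes LTKO was at least 2-fold above all 3 other arrays. The own control lay below the median gene for 133 of the 200, and all 3 other arrays did for 90. Of the 200, 75 belonged to at least 1 gene list and 125 to none. Genes in lists of sperm, testis and cilia numbered 41 of 199 measured, liver 18 of 190, epididymis 11 of 93, fat 4 of 278, and other cell types 5 of 254, with some genes in more than 1 class, where the 200 are 0.902% of all measured genes. A dim gene passes the filter only through the array where it is high, which raises the counts of lists with many dim genes. These counts therefore give no ranking of the classes.

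The 5 genes outside the lists that the naming rule took were all lower in the own control than in the other control. Taking genes by a large difference from the own control favours this. Gm4846, a predicted gene outside that rule and chosen after its values were seen, had a larger difference, at 2.69, 2.98, 2.84 and 5.84, with the own control above the Irs1/2-flox control. Slc38a3, a glutamine transporter, read 5.88, 5.91, 4.86 and 7.04, and Lrp2, the endocytic receptor megalin of absorptive epithelia, 7.59, 7.30, 6.72 and 8.74. Lrrc34 read 4.50, 3.60, 3.66 and 5.90, Efcab1, a calcium-binding protein, 4.31, 3.86, 3.36 and 5.56, and Cdr1 4.7, 3.81, 2.98 and 5.24. For 4 of these 5 genes the own control was the lowest array, again a count that the choice of genes raises, and for Lrrc34 LDKO was.

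**Figure D4:**
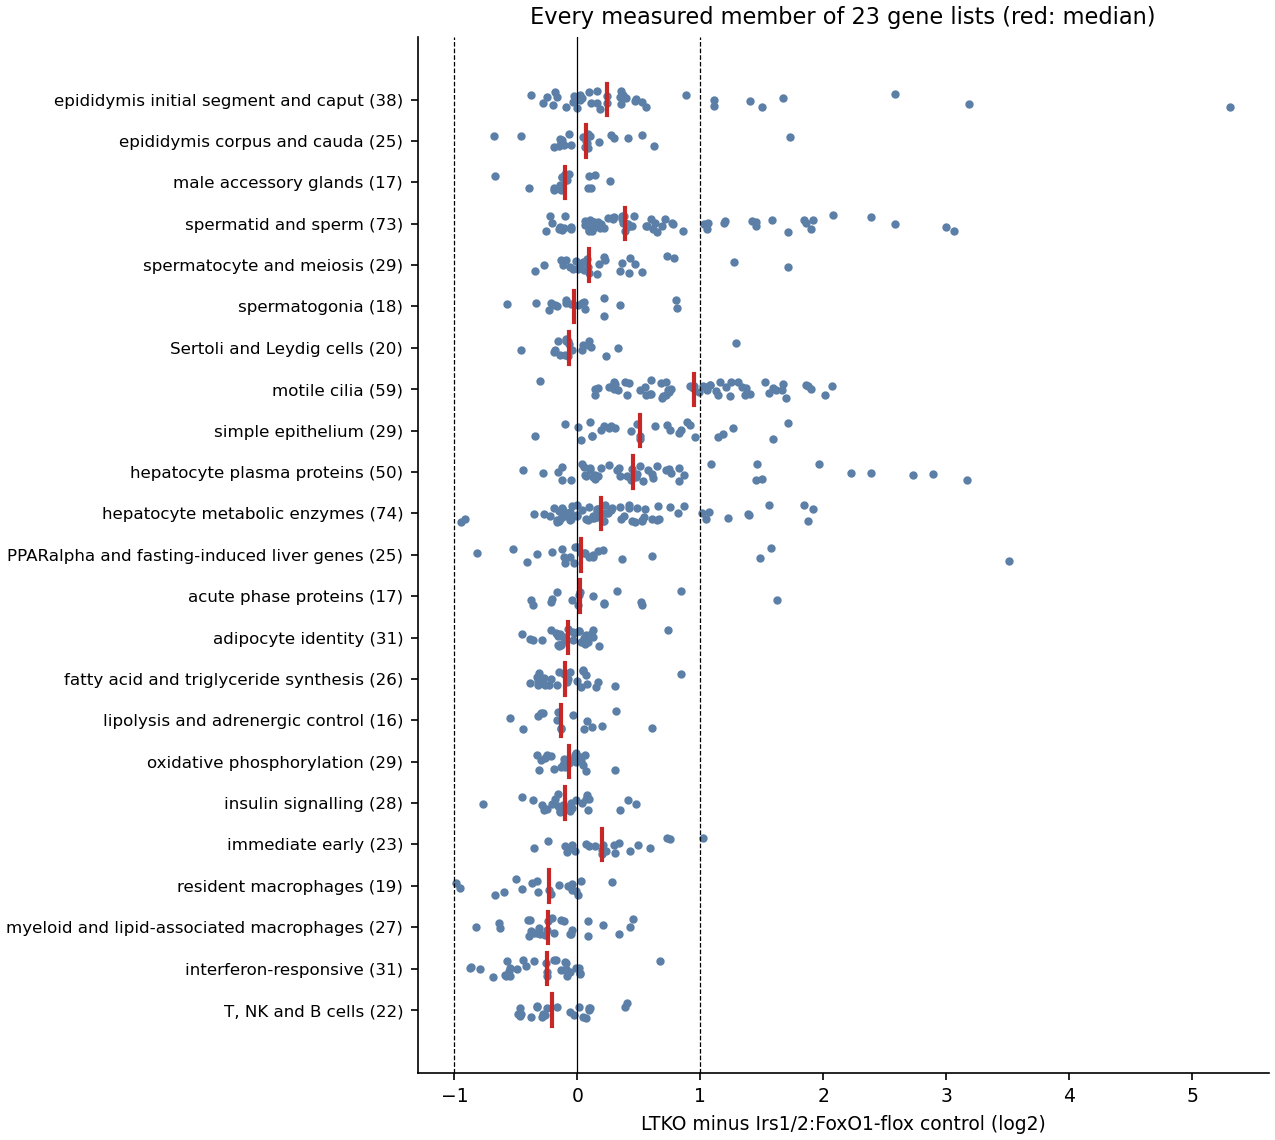
Every measured member of 23 gene lists, with its log2 difference LTKO minus Irs1/2:FoxO1-flox control on the x axis; the red bar is the list's median, dashed lines mark 2-fold either way, and the number of measured members stands beside each name. Motile cilia (median 0.94), epithelium, plasma proteins and sperm genes spread to the right, whereas adipocyte, lipid and mitochondrial lists cluster around 0.

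Few genes of fat itself differed by 2-fold. The 260 measured genes taken were on lists of fat (adipocyte, lipid, mitochondrial, insulin and other response genes) and on no list of epididymis, sperm or liver. Of them, 1 lay 2-fold or more above the own control in LTKO, 1 lay as far below, and the median was -0.06. Slc27a2, Tat and Igfbp1, which were also 2-fold higher, were left out because a liver list holds them too. At 1.5-fold the counts were 9 higher and 5 lower, where 3.11% and 0.852% of all genes were. As shares of the 260, both were above those of all genes. The gene of the 260 that was 2-fold higher was Ccn1, a matrix protein of the immediate early response, at 8.56, 8.01, 7.84 and 8.86. The gene 2-fold lower was Zim1, an imprinted zinc finger gene, at 9.41, 5.66, 9.75 and 8.69. Its LTKO value lay between the LDKO value, which was the lowest, and those of the controls.

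None of 31 adipocyte identity genes differed by 2-fold, and the median was -0.07. Lep, the hormone leptin, was the sole one past 1.5-fold, at 10.24, 11.09, 9.47 and 10.20; it was 0.74 above the own control and -0.03 from the Irs1/2-flox control. Pparg, the master regulator of adipocytes, read 10.14, 10.18, 10.40 and 10.04. Fst, follistatin, a secreted binder of activins, read 6.78, 6.30, 6.89 and 6.80, a difference of -0.10.

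Lipid genes were likewise level. None of 26 fatty acid and triglyceride synthesis genes reached 2-fold, with a median of -0.10 against the own control and 0.30 against the Irs1/2-flox control. Fads2, the delta-6 desaturase, read 7.57, 7.10, 7.45 and 8.29, and Pnpla3, a lipase relative that follows feeding, 6.53, 8.45, 7.64 and 7.25. None of 16 lipolysis genes reached 2-fold (median -0.13). G0s2, an inhibitor of the main triglyceride lipase, was 0.61 higher at its brighter probe. Its other probe was 0.11 higher, at 5.25, 5.47, 5.03 and 5.14. Hcar1, the lactate receptor that restrains lipolysis, read 6.56, 9.04, 8.06 and 7.51, a difference of -0.55. Among 19 cholesterol synthesis genes the median was 0.10, and Dhcr7, the last enzyme of the pathway, was lower by 0.62 (5.34, 5.93, 5.64 and 5.01).

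Energy metabolism showed small negative medians. Oxidative phosphorylation had 7 of 29 positive differences (median -0.07), fatty acid oxidation 3 of 20 (median -0.09), and glycolysis and the TCA cycle 7 of 22 (median -0.06). No member of these 3 lists differed by 1.5-fold from the own control. Against the Irs1/2-flox control their medians were 0.17, 0.24 and 0.22, and the own control exceeded that array by 0.27, 0.32 and 0.21. Ucp1, the uncoupling protein of brown fat, read 5.24, 4.83, 5.80 and 5.05.

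The floxed genes were all detected in fat. Irs2 read 7.96, 7.62, 7.93 and 7.79, and Foxo1 8.22, 8.02, 8.37 and 8.26, with 5.54, 5.53, 5.78 and 5.36 at its dimmer probe (a difference of -0.42). Irs1 read 6.96, 7.46, 7.86 and 7.09, lower by 0.77 in LTKO than in its own control. Second probes of Irs1, Rgs2, Mid1, Mmp7, Cdh1, Krt18 and Slc27a2 were below the 95th percentile of the chemoreceptor genes in all 4 arrays and bear on none of these differences. Of 28 insulin signalling genes none reached 2-fold, 8 had a positive difference, and the median was -0.10.

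Hormone-responsive and early response genes leaned upward against the own control. Of 21 glucocorticoid-responsive genes 14 had a positive difference, where 45.6% of all genes did. The list's median was 0.16 against the own control and -0.16 against the Irs1/2-flox control. Tat, tyrosine aminotransferase, read 5.91, 4.72, 5.39 and 6.77, and is on the liver list too. Of 23 immediate early genes 16 were positive, with a median of 0.20 against the own control and -0.08 against the other. The own control was the lowest array for 12 of the 23 (52.2%, against 23.3% of all genes). Fos read 6.05, 5.52, 5.19 and 5.92, and Egr1 5.48, 5.66, 5.02 and 5.78, so the Irs1/2-flox value lay close to that of LTKO.

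Few genes were at least 2-fold lower in LTKO than in the own control, although 54.3% of all genes had a negative difference. Of the 5 at least 2-fold lower, 2 were outside the naming rule and are given after their values were seen: Mir1960 at 4.67, 4.78, 5.26 and 3.91, and F830016B08Rik, a clone-named gene, at 5.79, 6.34, 5.66 and 4.38. The others were Ngb, neuroglobin (4.79, 4.90, 5.43 and 4.29), Slc43a1, a transporter of large neutral amino acids (7.87, 7.72, 8.71 and 7.63), and Zim1. In 4 of the 5 the own control was the highest array, the exception being F830016B08Rik. Among the 100 genes at least 1.5-fold lower the own control was the highest array for 75 and LTKO the lowest for 61, again counts that the choice of genes raises.

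The next named genes differed by -1.0 to -0.88. Rgs2, which curbs G protein signals, read 8.96, 8.08, 8.63 and 7.63. Gys2, the liver-type glycogen synthase that fat also makes, read 5.93, 7.23, 7.28 and 6.34, and Isl1, a transcription factor, 5.22, 4.95, 5.68 and 4.74. Mid1 read 6.76, 6.78, 7.04 and 6.12. Hal, histidine ammonia-lyase, read 3.97, 3.95, 5.54 and 4.62, and was high in the own control alone. The remaining named genes were H2-T24, Pf4, Krtap5-2, Tmco6 and 3 described below.

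Macrophage genes had mostly small negative differences. Of 19 resident macrophage genes 16 had a negative difference (84.2%, against 54.3% of all genes), 4 were at least 1.5-fold lower, none reached 2-fold, and the median was -0.23. Cd209g, a lectin of the DC-SIGN family, read 6.86, 5.18, 6.98 and 5.99. Vsig4, a complement receptor, read 4.99, 4.20, 5.26 and 4.31, and Fcna, a ficolin, 6.94, 5.91, 7.03 and 6.37. In these 3 genes the controls were the higher arrays and both Cre arrays the lower ones. Against the Irs1/2-flox control the list's median LTKO difference was -0.38, and that of LDKO was -0.51.

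General myeloid and lipid-associated macrophage genes had 21 negative differences of 27 (77.8%), a median of -0.24, and no gene past 2-fold. LTKO was the lowest array for 17 of the 27, against 25% of all genes. Cd68, a lysosomal protein of macrophages, read 8.62, 8.52, 8.64 and 8.01, and Lyz1, a lysozyme, 7.56, 6.81, 7.62 and 6.79. Trem2, a lipid receptor of macrophages, read 6.09, 6.15, 6.70 and 6.07 and stood apart in the own control instead. Genes of T, NK and B cells had 14 of 22 negative differences (63.6%, not far from the 54.3% of all genes) and a median of -0.21.

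Interferon-responsive genes had a negative difference in 27 of 31 cases (87.1%), with a median of -0.25 against the own control and -0.14 against the Irs1/2-flox control. Iigp1, an immunity-related GTPase, read 7.62, 7.80, 7.76 and 6.88, lowest in LTKO. Ifit3 read 5.09, 5.58, 5.84 and 4.98, Oasl2 6.49, 5.83, 6.89 and 6.10, and Rsad2, the antiviral enzyme viperin, 5.27, 5.48, 6.12 and 5.43. The own control was the highest array for 15 of the 31 (26.3% of all genes) and LTKO the lowest for 16 (25% of all genes). Bst2, tetherin, differed the other way, at 7.66, 7.96, 6.40 and 7.07.

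**Figure D5:**
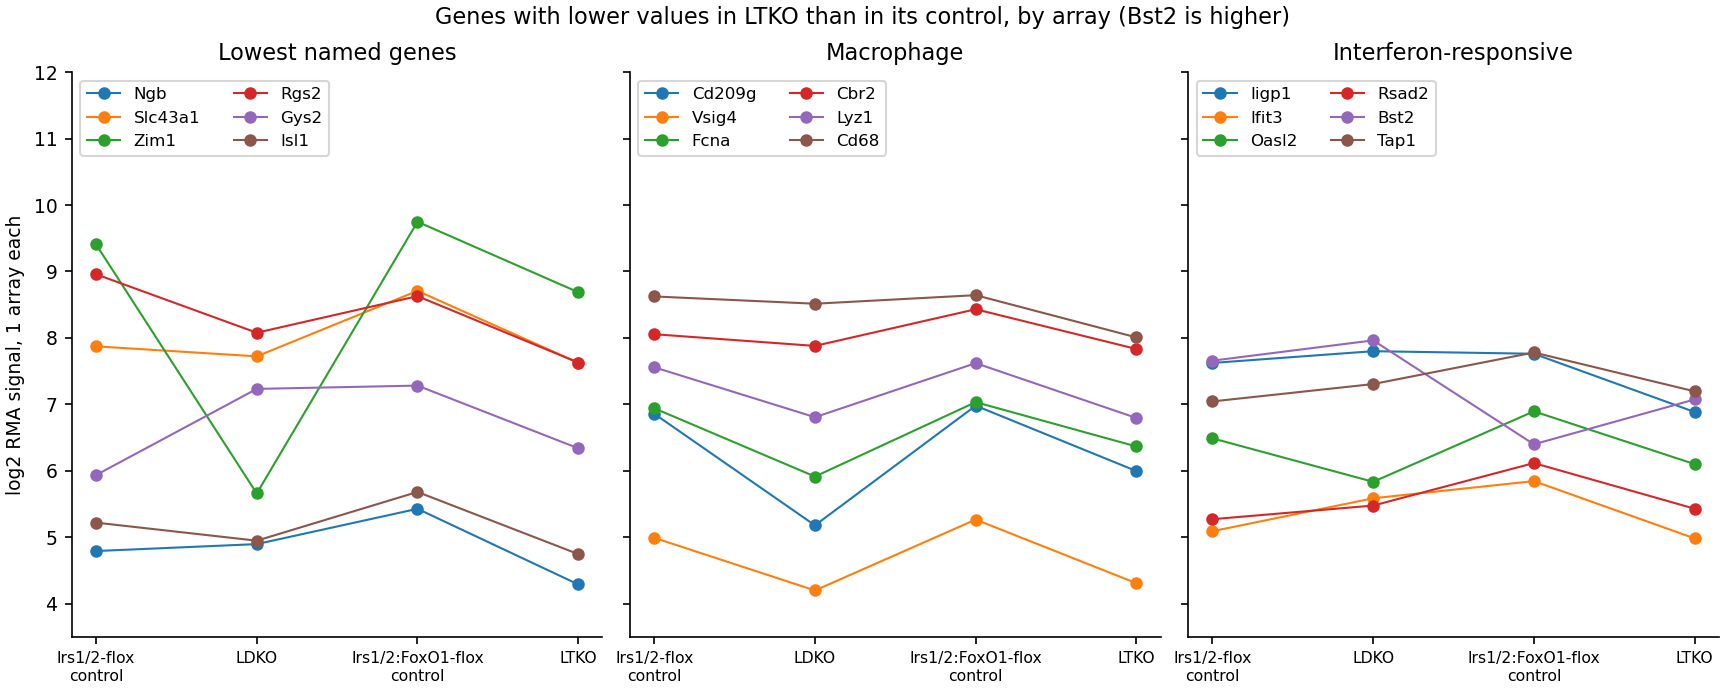
Log2 RMA signal in the 4 arrays, 1 array each, of 18 genes in 3 panels: low named genes, macrophage genes and interferon-responsive genes; lines only join the values of 1 gene. Iigp1 is lowest in LTKO (6.88), Rsad2 is highest in the own control (6.12), and Bst2 is the 1 gene drawn that is higher in LTKO than in the own control.

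Other cell types in the pad had medians near 0 against the own control. The medians were -0.00 for 18 smooth muscle and pericyte genes, -0.07 for 18 endothelial genes, -0.07 for 28 stromal and matrix genes, -0.10 for 21 skeletal muscle genes and -0.13 for 20 mesothelial genes. Against the Irs1/2-flox control the medians in the same order were 0.38, 0.05, 0.02, -0.64 and -0.45. Mmp2, a gelatinase of stromal cells, read 8.02, 8.22, 9.06 and 8.34, and Lox, which crosslinks collagen, 9.29, 9.08, 8.89 and 9.52. Of these 5 lists, Cdh1 of the mesothelial one was the sole member past 2-fold. Whether the LTKO array held RNA of epididymis, testis or liver, or any array that of ciliated epithelium, was not tested. Any part of such RNA in the small differences of fat genes was not tested either.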

How the data were processed

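Per the labels' protocols, RNA of fat from 4 groups was turned into biotin-labelled DNA and measured on Affymetrix arrays of whole transcripts. The deposited values are log2 signals, which the authors computed with RMA in Affymetrix Expression Console per the submitters' processing notes; tool versions and the set of arrays normalised together are not given in the sources read. RMA removes any shift common to all genes and compresses differences of dim probes.

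Of 41345 probes, 23521 had 1 symbol, 1814 several and 16010 none here. Of the 23521, 23328 were matched by gene ID to GRCm38.p6 and took its symbol, changed or not. A gene was the single-symbol probe with the highest mean over the arrays; 1082 of the 22180 genes had several such probes. Counts used genes whose higher array reached the median gene (5.15). The 40 lists held 1100 symbols, of which 996 were measured, and were summarised without that filter. Named genes were the 20 highest and 15 lowest past the filter (no predicted, clone or small RNA genes), members of the epididymis, sperm and liver lists, up to 6 of each other list, and Irs1, Irs2, Foxo1, Fst, Lep and Adipoq; genes given only to show a marker or a probe copy were chosen after their values were seen. The comparison and the lists were chosen with earlier results of these data known. Python 3.11.15, pandas 2.3.3 and statsmodels 0.14.6 (loess, span 0.3) were used, and the counting was tested on simulated data. Alternatives covered the fold threshold, filter, probe choice, normalisation and reference array.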

Additional observations from a re-analysis of the deposited data

Results flagged for a closer look

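Results stand out here because the LTKO and LDKO arrays moved to opposite sides of their own controls, or because probes left out of the gene table carried large differences. The median of the immediate early genes was 0.20 in LTKO minus its control and -0.27 in LDKO minus its control. The median of T, NK and B cell genes was -0.21 in LTKO and 0.35 in LDKO. Neither difference between the comparisons was tested, since each side is 1 array. Among 845 probes with several gene symbols that passed the filter, 30 lay 2-fold or more above the own control in LTKO and 1 lay as far below. Among 5220 probes without a gene symbol here, 86 were at least 2-fold higher and 70 lower. LTKO was at least 2-fold above the highest other array for 19 and 25 of these higher probes.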

How the results depend on the processing

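No replicate could be left out with 1 array a group, so alternatives show how counts depend on settings, not on biological spread. No paired analysis was possible because each group has 1 array. The 200 genes at least 2-fold higher became 409 at 1.5-fold, 77 at 3-fold, 81 with the filter at the 70th percentile, 97 with the Irs1/2-flox control as reference, 67 against the highest other array, and 126 without genes of the epididymis, sperm, cilia, liver and epithelium lists, an alternative chosen after seeing the data. The 5 genes lower became 100 at 1.5-fold, 0 at 3-fold, 8 with no filter, 2 with the filter at the 70th percentile, 47 with the Irs1/2-flox control and 1 against the lowest other array. Other settings (no filter for the higher genes, mean of probes, repeated quantile normalisation, loess, mean of both controls) left 144 to 250 higher and 5 to 7 lower. The median of the immediate early genes, 0.20, turned to -0.0766 with the Irs1/2-flox control. Of 40 list medians, 21 others moved by over 0.1 with that control, 17 with the mean of both controls, 11 as a mean over members and 8 with bright members only, and none with loess, the mean of probes or the largest member left out. The cause was not tested. Weak signals near background limit what dim genes can show.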
